A study of Mus musculus with 15 samples.

Results

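Primary astrocytes of mouse brain were sequenced in 15 libraries, and the 5 libraries of untreated control cultures are described here on their own. These 5 were chosen by their treatment label, control, and no measured value entered the choice. The remaining libraries came from cultures given lipopolysaccharide (LPS, a bacterial cell wall component) or ginsenoside Rg1 followed by LPS, and they enter none of the values below. Polyadenylated RNA was sequenced. All groups were primary astrocytes of mouse brain, and the labels used here name no strain, age, sex, brain region, culture medium or days in culture. They also do not say whether the 5 control libraries came from separate cultures or animals, so the spread between them may be technical.

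Astrocytes are the star-shaped glial cells that take up glutamate and potassium after neuronal firing, convert glutamate to glutamine, pass metabolites to neurons, and wrap synapses and blood vessels. They are coupled to each other through connexin channels, and they answer to transmitters through receptors of their own. Primary cultures are usually raised from the brains of newborn animals and passed through steps that leave behind neurons and microglia. Cultures can also carry other cells, such as fibroblast-like cells of the meninges. In RNA from a whole culture, fewer cells of a type and less RNA per cell cannot be told apart.

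Levels are given as FPKM, fragments divided by the length of a gene and by the library total, which allows genes of different length to be compared. They are written as mean ± SD over the 5 libraries. A gene was called detected when it reached 1 FPKM in each of the 5 libraries, which 10724 of the 25711 gene symbols did (41.7%). Shares of detected genes in the lists below are to be read against that 41.7%. Total counts per library ran from 34347116 to 39039780. In single libraries, between 11070 and 11182 symbols reached 1 FPKM. Another 14140 symbols reached it in no library, 847 did so in some libraries only, and 2709 symbols had no count at all. A count of 0 allows a level of up to 3 counts, which is 0.0768 to 0.0873 CPM in these libraries, where CPM is a count scaled to the library total alone. That limit covers counting error only. The 31 genes at 1000 FPKM or more held 20.4% of all FPKM, and the 639 genes from 100 to 1000 FPKM held another 38.8%. The 14555 genes under 1 FPKM held 0.42% together.

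The 5 genes used to define astrocytes were all detected, in every library. Gfap, the intermediate filament protein of astrocytes, stood at 477, 556, 524, 661 and 475 FPKM in control replicates 1 to 5. Slc1a3, the glutamate transporter GLAST, stood at 117, 134, 127, 149.8 and 121 FPKM. Aqp4, the water channel of astrocyte endfeet, stood at 74.1, 101, 88.0, 94.1 and 71.8 FPKM. Gfap exceeded the level of 99.2% of detected genes, Slc1a3 that of 95.3% and Aqp4 that of 92.5%. Sox9, which drives the switch of progenitors to glia, stood at 42.3, 47.2, 46.2, 47.2 and 48.5 FPKM. S100b, a calcium-binding protein, stood at 17.2, 20.1, 20.2, 21.2 and 18.5 FPKM and exceeded the level of 69.8% of detected genes. Control 4 was highest for Gfap, Slc1a3 and S100b, and control 1 was lowest for Slc1a3, Sox9 and S100b. The order of the 5 marker levels was the same in every library.

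**Figure D1:**
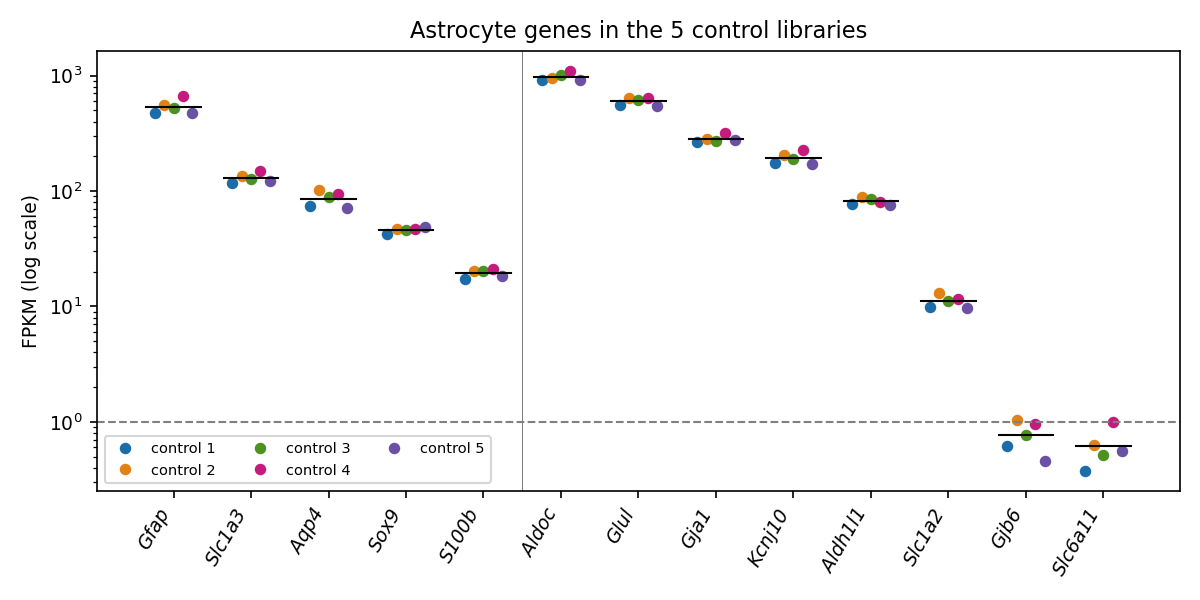
FPKM (log axis) of 13 astrocyte genes in the 5 control libraries, with 1 point per library and a black line at the mean. The dashed line marks the detection limit of 1 FPKM, and the 5 defining markers are left of the vertical line. All points of the first 11 genes lie above the limit, while Gjb6 and Slc6a11 lie about it, at means of 0.770 and 0.617 FPKM.

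Of 50 genes listed for astrocyte identity, 46 were detected, with a median level of 81.2 FPKM against 0.359 FPKM over all symbols. The list overlaps other lists, since Vim also marks progenitors and fibroblasts and Cst3 many cell types. Aldoc, the aldolase of astrocytes, reached 978 ± 79.0 FPKM. Glul, glutamine synthetase, reached 602 ± 45.3 FPKM. Aldh1l1, a folate enzyme used as a pan-astrocyte marker, reached 81.9 ± 5.64 FPKM. Mature astrocytes of the brain carry 2 main glutamate transporters, and their levels in these cultures were far apart. Slc1a2 (GLT-1) stood at 9.91, 13.1, 11.1, 11.6 and 9.76 FPKM, and Slc1a3 was 11.8 ± 1.02 times as high within a library (mean ± SD of the ratio). The ranges of both transporters did not overlap. Slc6a11, the astrocytic GABA transporter GAT-3, was not detected, at 0.617 ± 0.231 FPKM. Genes of radial glia, the progenitors from which astrocytes arise, were partly present. Nes stood at 172 ± 23.4 FPKM, Fabp7 at 489 ± 15.7 FPKM and Sox2 at 40.6 ± 4.37 FPKM. Hes5 and Neurog2, genes of neurogenic progenitors, were not detected, and Neurog2 had no count.

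Ferritin heavy chain, Fth1, was the gene of highest level, at 9638, 9819, 10073, 10981 and 10099 FPKM. Cst3, which encodes the secreted protease inhibitor cystatin C, followed at 8862, 9443, 9664, 9898 and 9029 FPKM. Fth1 exceeded Cst3 in each library, although the ranges of both overlapped, and both were lowest in control 1 and highest in control 4. The order depends on the gene length: with the longest transcript of each gene in GENCODE vM21, Cst3 stood at 8681 FPKM and Fth1 at 4624 FPKM. The mitochondrially encoded genes had no such length. The 30 highest genes held 20.1% of all FPKM. Iron and redox proteins were prominent among them, with Ftl1 (ferritin light chain) at 3486 ± 296 FPKM, Prdx6 at 1819.6 ± 117 FPKM, Prdx1 at 1021 ± 122 FPKM, the glutathione transferase Gstm1 at 1670.4 ± 115 FPKM and the haem-degrading enzyme Hmox1 at 1161 ± 138 FPKM. Cytoskeletal genes were Vim at 4175 ± 118.5 FPKM, Tmsb4x at 1906 ± 36.1 FPKM and Actb at 1648 ± 150.97 FPKM. Secreted proteins were Igfbp2 at 1836 ± 105 FPKM, Apoe at 1467 ± 140.5 FPKM, Sparc at 1462 ± 88.3 FPKM and the peptide-processing enzyme Cpe at 1331 ± 67.9 FPKM. Pea15a, an astrocyte phosphoprotein that binds ERK, stood at 2765, 3033, 2982, 3111 and 2800.2 FPKM, the brain creatine kinase Ckb at 2012 ± 108 FPKM, and the lysosomal protease Ctsd at 1864 ± 28.8 FPKM. 6 of the mitochondrially encoded genes were in the list, led by COX1 at 8091 ± 242 FPKM and CYTB at 4236 ± 265 FPKM. When genes were ordered by CPM, with no division by length, 19 of the 30 stayed among the first 30. The FPKM length of Gfap was 7420 bases, against 2648 bases for its longest transcript in GENCODE vM21, and with that length its mean would be 1509 FPKM.

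Antioxidant and metal-binding genes were nearly all detected. Of 41 measured, 40 were detected, with a median of 128 FPKM. The metallothioneins bind zinc and copper, and Mt3 is the form named for the brain. Mt1 stood at 537, 633, 591, 747 and 575 FPKM, Mt2 at 863, 1139, 1056, 1211 and 961 FPKM and Mt3 at 1596, 1809, 1753, 2055 and 1651 FPKM in control replicates 1 to 5. All 3 genes ordered the libraries the same way, from control 1 as the lowest through controls 5, 3 and 2 to control 4 as the highest, and Mt3 exceeded Mt2 and Mt2 exceeded Mt1 in each library. This order was not particular to the metallothioneins, since Slc1a3 ordered the libraries in the same way. Relative to the median of the other libraries, the median astrocyte identity gene also followed it, from 0.903 in control 1 to 1.11 in control 4. The ratio of Mt3 to Mt1 was 2.88 ± 0.0903 and that of Mt3 to Mt2 was 1.70 ± 0.0959.

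Metallothionein genes are switched on by metals through a transcription factor that binds a short element upstream of the gene start. The 150 bases before the first listed start of each of the 3 genes follow. They are from RefSeq on GRCm38.p6, 5′ to 3′ on the plus strand. Mt1 is chr8:94178939-94179088, Mt2 is chr8:94172468-94172617 and Mt3 is chr8:94152457-94152606. Capitals mark matches to the core TGCACNC or TGCGCNC of the metal response element, searched on both strands.
Mt1: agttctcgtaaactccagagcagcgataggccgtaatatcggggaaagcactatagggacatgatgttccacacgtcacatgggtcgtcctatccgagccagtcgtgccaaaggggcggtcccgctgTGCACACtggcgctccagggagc
Mt2: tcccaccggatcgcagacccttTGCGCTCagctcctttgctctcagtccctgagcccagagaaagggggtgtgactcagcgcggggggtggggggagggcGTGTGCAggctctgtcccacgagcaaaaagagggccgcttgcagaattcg
Mt3: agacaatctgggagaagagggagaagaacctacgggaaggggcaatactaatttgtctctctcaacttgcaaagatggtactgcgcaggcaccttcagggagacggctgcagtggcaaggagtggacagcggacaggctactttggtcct
In the 250 bases before the first listed start, Mt1 held 1 match, Mt2 held 3 and Mt3 held 0. Bases after that start and any other starts of these genes were not searched, so these are not counts for the whole promoter. A match was found in 21.3% of the 27025 genes with a sequence of this length, so it is a description of the letters and does not show binding.

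Regional transcription factors keep a record of the brain region in which a cell arose. Of 24 factors of the cortex and forebrain, 14 were detected, while of 16 factors of the midbrain and hindbrain 1 was, and of 19 Hox genes none. Lhx2, a cortical selector gene, stood at 12.1, 12.9, 12.9, 11.8 and 12.99 FPKM. Zic2 stood at 24.6 ± 2.46 FPKM, Zic1 at 16.2 ± 1.38 FPKM, and Nr2f1 and Nr2f2 at 8.16 ± 0.862 and 8.47 ± 0.639 FPKM. The detected cortical and forebrain factors had a median CV of 10.2%, against 6.60% over all detected genes. Emx2 stood at 2.73 ± 0.509 FPKM and Emx1, a marker of the dorsal forebrain, at 0.0991 ± 0.0652 FPKM. Nkx2-1, of the ventral forebrain, stood at 0.119 ± 0.0665 FPKM, and Dlx5 had no count. The hindbrain factor that passed was Egr2, at 3.30 ± 0.537 FPKM, which is also an immediate early gene. En1, En2 and Pax7, of the midbrain, stood at 0.0175 ± 0.0123, 0.0286 ± 0.0223 and 0.000923 FPKM, and Pax5 had no count. Of the 19 Hox genes measured, 11 had no count. The other Hox genes listed were not analysed here.

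Of 92 further transcription factors of glia, 70 were detected, with a median of 11.7 FPKM. Id3 was highest, at 233 ± 12.7 FPKM, and Id1 stood at 97.9 ± 6.13 FPKM, both inhibitors of basic helix-loop-helix factors downstream of BMP signals. Nfe2l1 stood at 115 ± 2.01 FPKM and Nfe2l2 (NRF2), the regulator of antioxidant genes, at 92.4 ± 4.70 FPKM. Atf4 stood at 103 ± 9.04 FPKM and Stat3 at 87.3 ± 3.97 FPKM. Olig1, shared by astrocyte and oligodendrocyte lineages, stood at 98.6 ± 5.03 FPKM. Immediate early genes, which respond to stimuli within minutes to hours, were present in these untreated cultures, and 24 of 26 were detected. Jun stood at 109.8 ± 14.4 FPKM, Fosl2 at 70.2 ± 5.48 FPKM, Atf3 at 68.3 ± 14.3 FPKM, Maff at 74.4 ± 6.35 FPKM and Fosl1 at 63.4 ± 14.1 FPKM. Of the 16 clock genes, 13 were detected, with Bhlhe40 at 57.3 ± 3.85 FPKM, Nr1d1 at 24.9 ± 3.20 FPKM and Bmal1 at 1.93 ± 0.0564 FPKM.

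Receptors for fast transmitters were mostly near or under the detection limit. Of 18 ionotropic glutamate receptor genes, 4 were detected. Gria3, an AMPA receptor subunit, stood at 16.7, 17.4, 15.4, 15.03 and 16.4 FPKM and was the highest. Grik5, a kainate receptor subunit, stood at 7.84 ± 0.25001 FPKM, Gria2 at 1.82 ± 0.0912 FPKM and Gria4 at 1.39 ± 0.332 FPKM. Grin1, the subunit that every NMDA receptor needs, stood at 0.463, 0.515, 0.522, 0.220 and 0.578 FPKM and did not reach 1 FPKM in any library. None of the 8 metabotropic glutamate receptor genes was detected. Grm5, the form known from young astrocytes, stood at 0.0355 ± 0.0198 FPKM, and Grm3, the form known from mature ones, at 0.0187 ± 0.0133 FPKM. Among 19 GABA and glycine receptor genes, 4 were detected, among them Glrb at 5.43 ± 0.196 FPKM, Gabbr1 at 5.41 ± 0.241 FPKM and Gabrb1 at 3.03 ± 0.473 FPKM. Gabbr2, which pairs with Gabbr1 in the GABA-B receptor, stood at 0.00600 ± 0.00652 FPKM.

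Of 19 purine receptor genes, 7 were detected, and the adenosine receptor Adora1 led them at 18.3, 19.1, 18.4, 19.8 and 17.4 FPKM. P2rx4, an ATP-gated channel, stood at 11.6 ± 0.978 FPKM. P2ry2 and P2ry1, receptors through which ATP and ADP raise calcium in astrocytes, stood at 7.82 ± 1.42 and 2.95 ± 0.181 FPKM. P2rx7 stood at 0.332 ± 0.0496 FPKM. P2ry12, a receptor of microglia, stood at 0.143 ± 0.0644 FPKM. Among 38 monoamine and acetylcholine receptor genes, 7 were detected, most of them adrenergic receptors. Adra1d stood at 6.99, 7.01, 7.85, 8.32 and 8.12 FPKM and Adra2a at 4.31, 6.64, 5.42, 6.83 and 3.24 FPKM. Adra2a varied more than Adra1d, as the ranges of 3.24 to 6.83 and 6.99 to 8.32 FPKM show. Adrb1 stood at 3.55 ± 0.175 FPKM, Adra1b at 2.78 ± 0.369 FPKM, the serotonin receptor Htr1b at 2.23 ± 0.648 FPKM and the muscle-type acetylcholine receptor subunit Chrnb1 at 3.85 ± 0.342 FPKM.

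Receptors for peptides, lipids and Wnt ligands were more often detected, 39 of 73. Gpr37l1, an orphan receptor of astrocytes, stood at 71.5 ± 5.19 FPKM, the thrombin receptor F2r at 59.9 ± 5.73 FPKM, the sphingosine 1-phosphate receptor S1pr3 at 51.8 ± 7.62 FPKM and the Hedgehog transducer Smo at 35.9 ± 1.35 FPKM. Of 82 growth factor and cytokine receptor genes, 59 were detected, and this list had a median of 7.18 FPKM. Tnfrsf12a, the TWEAK receptor, was highest, at 447, 341, 399, 413 and 477 FPKM. Tnfrsf1a, the main TNF receptor, stood at 123, 117, 127, 136 and 126.1 FPKM. Fgfr1 stood at 77.2 ± 1.39 FPKM, Axl at 60.02 ± 5.66 FPKM, the shared IL-6 family subunit Il6st at 58.7 ± 5.90 FPKM and Ddr1 at 57.9 ± 0.637 FPKM. Fgfr1 and Ddr1 varied little between libraries, with a CV of 2.07% and 0.830%.

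Of 31 genes for pattern recognition, 10 were detected, none with a mean above 10 FPKM. Tlr4, the receptor for LPS, stood at 3.63, 3.94, 3.51, 3.89 and 3.36 FPKM. Its cofactors Cd14 and Ly96 (MD-2) stood at 7.73, 6.68, 6.06, 11.9 and 8.43 and 5.14, 5.35, 5.39, 6.28 and 7.01 FPKM. Tlr4 stayed within a narrow range, while Cd14 was highest in control 4 and spread more widely. Tlr3 stood at 6.63 ± 0.406 FPKM, Tlr1 at 4.25 ± 0.471 FPKM and Tlr2 at 2.41 ± 0.306 FPKM. Of the inflammasome genes, Casp1 stood at 2.70 ± 0.469 FPKM, its adaptor Pycard at 0.448 ± 0.217 FPKM, the sensor Nlrp3 at 0.0312 ± 0.0205 FPKM and the sensor Nlrp2, which the series title names, at 0.00620 ± 0.00635 FPKM. Nlrp3 and Nlrp2 had 23 and 4 counts over the 5 libraries.

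**Figure D2:**
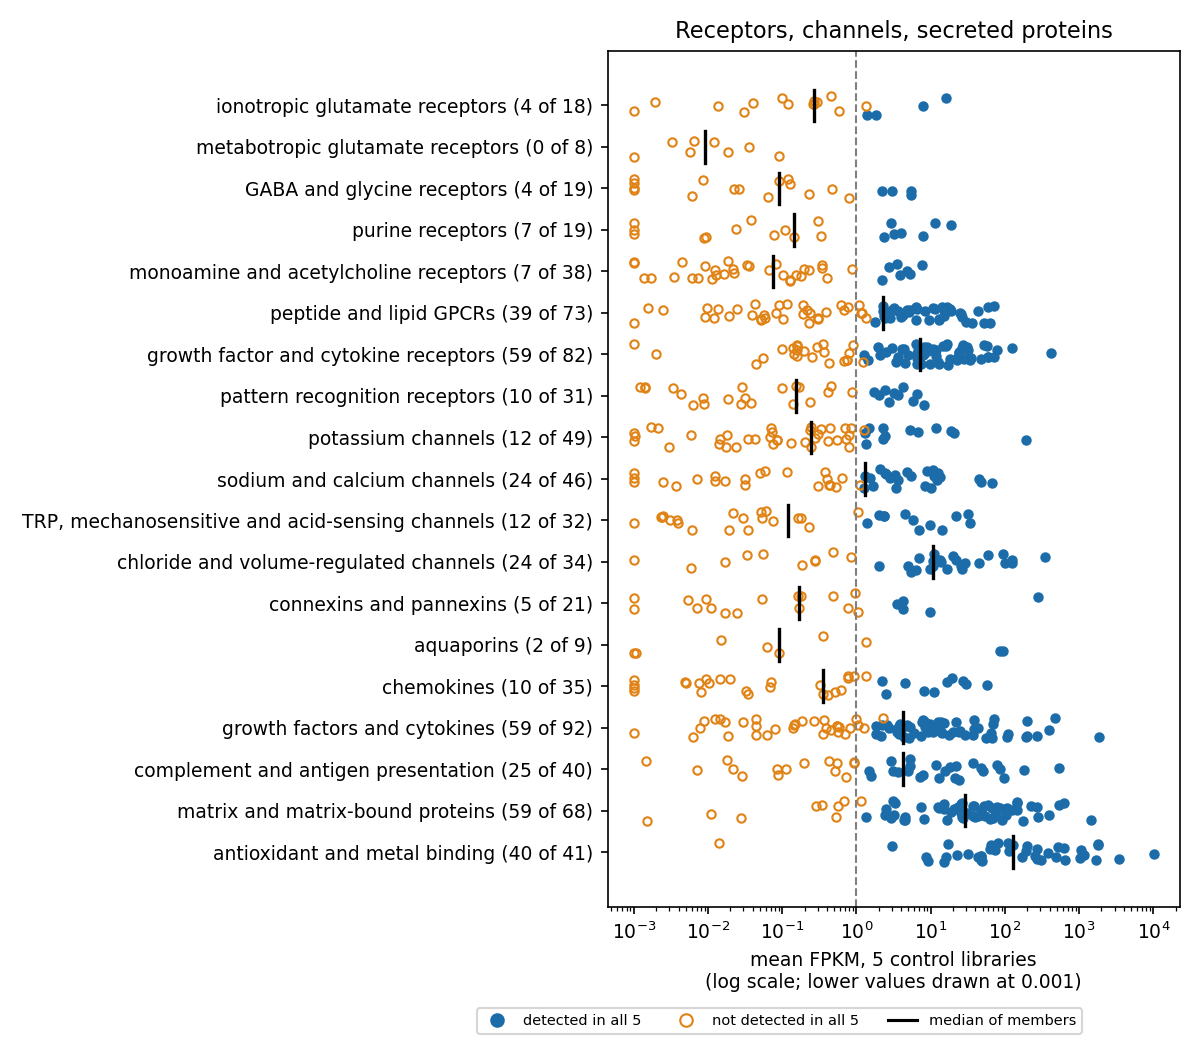
Mean FPKM over the 5 control libraries (log axis, values under 0.001 drawn at 0.001) of each member of 19 lists, with filled points for genes detected in all 5 libraries, open points for others, a black bar at the list's median and a dashed line at 1 FPKM. The counts beside each name are detected of measured members, and they run from 0 of 8 metabotropic glutamate receptors to 40 of 41 antioxidant and metal-binding genes.

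Kcnj10 (Kir4.1), the inward rectifier through which astrocytes take up potassium, stood at 176, 204, 191, 225 and 173 FPKM. It was far above the other potassium channel genes, of which Kcnk2 (TREK-1) was next at 20.4 ± 1.28 FPKM, and 12 of 49 were detected. Kcnj16, which can pair with Kcnj10, stood at 1.47 ± 0.188 FPKM. Of 46 genes for sodium and calcium channels and calcium pumps, 24 were detected, led by the calcium pump Atp2a2 at 67.4 ± 2.07 FPKM and Cacng7 at 48.3 ± 2.08 FPKM. The store-operated calcium entry genes Stim1, Orai1 and Orai3 stood at 13.4 ± 0.834, 12.7 ± 0.702 and 12.3 ± 0.890 FPKM. Piezo1, a channel opened by stretch, stood at 38.3, 30.6, 31.7, 29.1 and 38.1 FPKM. It was lowest in control 4 and highest in control 1. Tmem63b stood at 31.6 ± 1.43 FPKM and Mcoln1 at 22.2 ± 0.643 FPKM. Of chloride and volume-regulated channels, 24 of 34 were detected, with Clic1 at 345 ± 42.7 FPKM, Clic4 at 123 ± 6.29 FPKM and Ttyh1 at 59.4 ± 6.83 FPKM.

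Gap junctions of astrocytes are built mainly from connexin 43 and connexin 30. Gja1 (connexin 43) stood at 265, 279.9, 274, 321 and 274 FPKM. Gjb6 (connexin 30) stood at 0.619, 1.04, 0.766, 0.967 and 0.460 FPKM and reached 1 FPKM in 1 library only. Gja1 was higher in each library. Of 21 connexin and pannexin genes, 5 were detected. Gja4, known from endothelial and smooth muscle cells, stood at 9.45, 5.13, 7.44, 11.8 and 15.4 FPKM. Gjb2 stood at 4.52, 1.93, 2.58, 3.17 and 5.31 FPKM, Gjc1 at 4.19 ± 0.557 FPKM and Panx1 at 4.19 ± 0.752 FPKM. Gja4 and Gjb2 spread far more widely than Gja1, with a CV of 41.1% and 40.2% against 8.23%. Of 9 aquaporin genes, 2 were detected. Aqp1, a water channel of the choroid plexus that reactive astrocytes can also carry, stood at 78.5, 125, 92.0, 113 and 58.7 FPKM. Its level was close to that of Aqp4, with a ratio of 1.07 ± 0.166 that became 0.949 ± 0.147 with the lengths of the longest GENCODE transcripts, and both were highest in control 2 and lowest in control 5.

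Of 35 genes for glutamate, GABA and glycine transport and conversion, 20 were detected. After Glul came Glud1 (glutamate dehydrogenase) at 146 ± 6.63 FPKM and Slc1a3, and further members were the glutamine transporter Slc38a3 at 73.8 ± 4.35 FPKM and Slc7a11, the cystine-glutamate exchanger, at 49.4 ± 2.33 FPKM. For glucose use, 32 of 40 genes were detected, with Ldhb at 664 ± 41.3 FPKM, Eno1 at 510.4 ± 29.1 FPKM and Pgk1 at 381 ± 7.06 FPKM. Ldhb was 6.002 ± 0.517 times as high as Ldha, or 2.04 ± 0.176 times with the lengths of the longest GENCODE transcripts. Gapdh and Aldoa, common glycolytic genes, were listed below Eno1 and Pgk1 of the same pathway. Gapdh stood at 22.9, 20.1, 24.7, 22.9 and 26.9 FPKM, and Aldoa at 2.51, 2.34, 2.87, 2.27 and 3.56 FPKM. In GENCODE vM21, 25.1% of the 50-base windows of Gapdh transcripts also occur in transcripts of other genes, and how reads with more than 1 matching place were counted is not given in the sources used here. The level of Gapdh is therefore uncertain. The same holds for Ftl1, with 58.4% of windows shared and Eef1a1 with 40.4%. Aldoa had no matched GENCODE windows or length, so its level could not be checked in this way and is also uncertain. Vim, Gfap, Cst3, Mt1 and Mt3 had 0% shared.

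Astrocytes make much of the brain's cholesterol and its lipoprotein particles. Of the lipid genes listed, 39 of 46 were detected. After Apoe came Psap, a lysosomal saposin precursor, at 909.7 ± 25.1 FPKM, the desaturase Scd2 at 799 ± 31.6 FPKM and Apod at 459.8, 566, 573, 846 and 479.6 FPKM. Clu stood at 439 ± 56.0 FPKM. Apod varied more than Psap, Scd2 and Clu, with a CV of 26.8%. Fads2 stood at 286 ± 5.41 FPKM, and Scd1 at 224 ± 10.4 FPKM. Scd2 was 3.57 ± 0.114 times as high as Scd1. Of mitochondrially encoded genes, all 13 were detected and together took 2.66 ± 0.119% of counts. COX1 and COX2, subunits of the same respiratory complex, stood at 7787, 8079, 7937, 8384 and 8269 and 74.6, 86.0, 94.5, 90.2 and 91.0 FPKM. COX1 was 93.2 ± 7.34 times as high as COX2. The mitochondrially encoded genes had no matched GENCODE length, so this ratio was not checked for length or shared sequence. How reads with several matching places were counted is not given in the sources used here. The levels of the mitochondrially encoded genes, this ratio and their share of counts are therefore uncertain.

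Genes for secreted matrix proteins were abundant. Of 68 matrix genes, 59 were detected, and the median was 28.7 FPKM. Sparc, a matrix protein that limits synapse formation, was highest. Fn1 (fibronectin) stood at 648, 616, 619.8, 574 and 639 FPKM, Bgn (biglycan) at 539 ± 44.1 FPKM, Col1a2 at 409, 447, 407, 389 and 340.2 FPKM, Dcn (decorin) at 210.3, 317, 272, 359.7 and 218 FPKM and Lox at 271 ± 26.3 FPKM. Fn1 varied little between libraries, while Dcn ranged from 210.3 to 359.7 FPKM. Collagens, Dcn and Lum also mark fibroblasts, whose list had a summed level of 1598 to 1990.1 FPKM per library, and the part of such cells in the matrix levels was not tested. Spp1 stood at 175 ± 27.1 FPKM. Of 51 genes for proteases and their inhibitors, 48 were detected. Beside Cst3 and Ctsd, these included Timp2 at 682 ± 50.8 FPKM, Serpinf1 (PEDF) at 573 ± 36.8 FPKM, Ctsb at 543 ± 15.4 FPKM and Timp3 at 301 ± 9.68 FPKM. Among secreted factors that act on synapses, 31 of 41 were detected. Thbs1 stood at 343, 277, 269, 221 and 327 FPKM, Thbs2 at 54.4 ± 9.68 FPKM, Sparcl1 at 80.5 ± 6.20 FPKM, Gpc4 at 78.5 ± 5.66 FPKM and Gpc3 at 75.5 ± 13.1 FPKM. Thbs1 and Gpc4 encode proteins by which astrocytes promote synapse formation, and Ptn (pleiotrophin) stood at 68.6 ± 21.2 FPKM.

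Of 92 growth factor and cytokine genes, 59 were detected. Igfbp2 and Igfbp5, which bind insulin-like growth factors, were highest, at 1956, 1816, 1850.2, 1674 and 1887 and 472 ± 59.99 FPKM, and Igfbp3 stood at 194 ± 11.6 FPKM. Ccn2 and Ccn1, targets of YAP signalling, stood at 392 ± 29.0 and 275 ± 30.1 FPKM. Hbegf, a ligand of the EGF receptor, stood at 206, 159, 183, 201 and 252 FPKM. Its highest library was control 5 and its lowest control 2. Chemokine genes were fewer and lower, 10 of 35. Ccl2 stood at 59.9, 52.2, 59.5, 47.2 and 66.3 FPKM, Cx3cl1 at 29.6 ± 1.601 FPKM, Cxcl14 at 26.9 ± 3.53 FPKM, Cxcl12 at 19.2 ± 3.15 FPKM, Ccl7 at 16.5 ± 2.73 FPKM, Cxcl1 at 10.9 ± 2.10 FPKM and Cxcl10 at 12.8, 8.30, 8.32, 6.24 and 5.23 FPKM. Ccl2 stayed within 47.2 to 66.3 FPKM, while Cxcl10 ran from 5.23 to 12.8 FPKM. Of complement and antigen presentation genes, 25 of 40 were detected, with B2m at 538 ± 62.2 FPKM, H2-D1 at 178 ± 14.5 FPKM, C3 at 89.996, 130.2, 118, 75.2 and 79.7 FPKM and Serping1 at 78.5 ± 18.4 FPKM.

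Of 59 genes listed as reactive or inflammatory, 51 were detected in the untreated cultures, with a median of 39.9 FPKM. The highest member, Vim, also marks progenitors and fibroblasts, and the part of other cells in these levels was not tested. Lcn2 (lipocalin 2), a secreted iron-siderophore carrier, stood at 260.3, 347, 339, 132 and 242 FPKM. Control 4 was the lowest, and the other 4 did not reach down to it. Lgals1 stood at 1006 ± 115 FPKM, S100a11 at 968 ± 29.9 FPKM, Anxa2 at 746 ± 73.8 FPKM and S100a10 at 399 ± 48.7 FPKM. Astrocytes taken directly from the brain were not analysed here.

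Of 37 cell cycle genes, 30 were detected, with a median of 4.87 FPKM, and the 6 highest were D-type cyclins and cell cycle inhibitors. Ccnd1 stood at 382, 362, 369, 329.5 and 382 FPKM. The inhibitors Cdkn1a (p21), Cdkn2b (p15) and Cdkn2a (which encodes p16 and ARF) stood at 255, 218, 230.2, 271 and 267, 102, 105, 103, 107 and 104 and 74.3, 80.0, 79.5, 82.2 and 75.9 FPKM. Cdkn2b and Cdkn2a varied little, with a CV of 2.47% and 4.14%. Mki67, a marker of dividing cells, stood at 1.19, 0.796, 0.835, 0.463 and 0.599 FPKM. It was highest in control 1 and lowest in control 4. Pcna stood at 38.9 ± 0.824 FPKM. Of the 30 detected, 19 were highest in control 1 (63.3%, against 19.1% of all detected genes) and 20 were lowest in control 4 (66.7%, against 27.2%).

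Markers of other cell types were looked for in 11 lists, chosen from general knowledge of brain cells but with earlier results of these data known. The list for fibroblasts and meninges had the highest median, 23.98 FPKM, and 17 of its 22 genes were detected. The collagen genes Col1a2, Col1a1 and Col3a1 stood at 399 ± 38.9, 223 ± 28.2 and 147 ± 18.8 FPKM. The transcription factors Twist1, Foxc1, Foxd1 and Tbx18, known from mesenchyme and meninges, stood at 40.2 ± 5.04, 32.003, 36.7, 33.8, 35.1 and 29.9, 29.999 ± 5.22 and 14.2 ± 0.599 FPKM. Foxc1 was thus present at a similar level in all 5 libraries. Lum (lumican) stood at 52.2, 68.1, 68.9, 91.2 and 55.8 FPKM. Slc6a13 and Slc22a6, transporters of the meninges, had no count, and Dpt stood at 0.0844 ± 0.0672 FPKM. The list of pericytes and smooth muscle had 7 of 15 genes detected (46.7%, against 41.7% of all symbols). Tagln and Acta2, actin-linked genes of contractile cells that are also raised in cultured mesenchymal cells, stood at 1089, 881, 946, 753 and 1043 and 708, 542, 564, 461 and 602 FPKM. Both were lowest in control 4. Rgs5, Kcnj8, Abcc9 and Vtn, which mark pericytes, stood at 0.161 ± 0.0667, 0.00211 ± 0.00471, 0.00140 ± 0.00191 and 0.233 ± 0.173 FPKM, and Myh11, of smooth muscle, at 0.146 ± 0.0426 FPKM.

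Endothelial genes were detected at a share near that of all symbols, 6 of 17 (35.3%, against 41.7%). Their median was 0.375 FPKM, against 0.359 FPKM over all symbols. Cdh5 (VE-cadherin) stood at 28.5, 27.2, 28.6, 33.4 and 30.6 FPKM and Esam at 17.96 ± 5.74 FPKM. Other defining endothelial genes were near 0, with Pecam1 at 0.0192 ± 0.0153 FPKM, Kdr at 0.198 ± 0.0415 FPKM, Vwf at 0.0247 ± 0.0125 FPKM, and no count of Cldn5 or Tie1. Of ependymal and choroid plexus genes, 8 of 17 were detected (47.1%, against 41.7%). Foxj1, the master gene of motile cilia, stood at 26.9, 31.7, 29.5, 35.4 and 27.5 FPKM. The cilia genes Dynlrb2, Enkur and Cfap126 stood at 4.47 ± 0.638, 3.16 ± 0.910 and 2.23 ± 0.416 FPKM. Ttr, the defining gene of the choroid plexus, stood at 0.0539 ± 0.0355 FPKM, and Kl at 0.00208 ± 0.00466 FPKM.

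Of 27 neuronal genes, 14 were detected (51.9%, against 41.7% of all symbols). Stmn2 and Uchl1 were high, at 236, 224, 227, 219 and 227 and 214, 189, 208, 199 and 226 FPKM. Nefm stood at 40.7, 22.004, 29.8, 43.2 and 48.1 FPKM. These 3 are known from axons and growing neurites. Genes that define mature neurons were near 0, with Rbfox3 (NeuN) at 0.000426 FPKM, Snap25 at 0.00199 ± 0.00444 FPKM and Slc17a7 at 0.0886 ± 0.0555 FPKM. Dcx, a marker of immature neurons, was also near 0, at 0.000624 FPKM. Of 14 oligodendrocyte precursor genes, 6 were detected (42.9%, near the share of all symbols). Olig1, C1ql1 and Olig2, at 98.6 ± 5.03, 56.0 ± 4.71 and 18.8 ± 0.884 FPKM, led this list. Sox10, which every cell of that lineage carries, stood at 0.0473 ± 0.0371 FPKM, and Pdgfra at 4.55 ± 1.40 FPKM. Of 16 oligodendrocyte genes, 6 were detected (37.5%, also near that share). Cnp and Cldn11 stood at 43.8 ± 7.46 and 38.2 ± 12.9 FPKM, while the myelin genes Mbp, Mog and Mobp stood at 0.669 ± 0.384, 0.0335 ± 0.0581 and 0.00524 ± 0.0117 FPKM. Mog had 10 counts in all and stood at 0.00777 FPKM without control 4. Of 10 genes of blood cells none was detected.

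**Figure D3:**
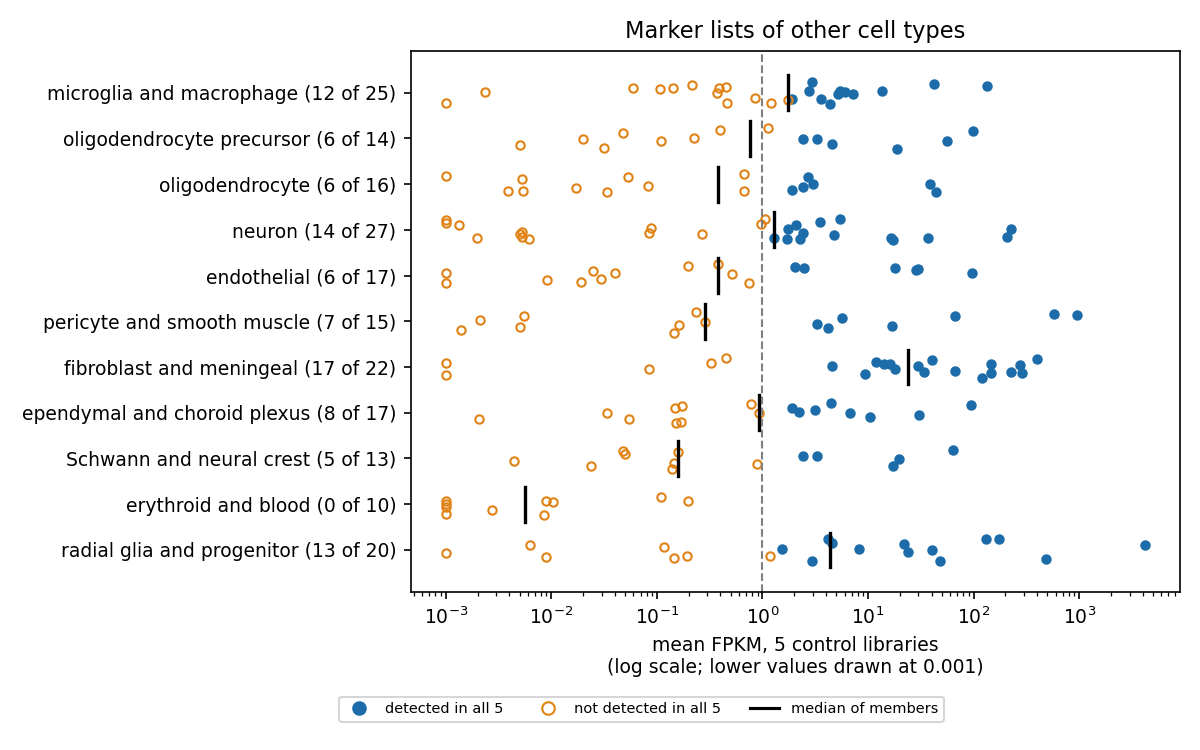
Mean FPKM over the 5 control libraries (log axis, values under 0.001 drawn at 0.001) of each marker of 11 other cell types, with filled points for genes detected in all 5 libraries, open points for others, a black bar at the list's median and a dashed line at 1 FPKM. The fibroblast and meningeal list has the highest median, 23.98 FPKM, and no blood gene is detected.

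The microglia and macrophage list set control 4 apart. Microglia are the resident immune cells of the brain and are commonly found in astrocyte cultures. Lyz2 (lysozyme) stood at 90.1, 78.3, 87.5, 311 and 96.8 FPKM, so that control 4 stood far above the other libraries. Tyrobp, a signalling adaptor of microglia, stood at 2.98, 3.02, 3.88, 14.2 and 3.25 FPKM. C1qa, a complement subunit made by microglia, stood at 1.94, 3.56, 3.62, 13.2 and 3.73 FPKM. Csf1r, the receptor on which microglia depend, stood at 0.754, 0.812, 0.548, 3.27 and 0.687 FPKM. Trem2 stood at 1.07, 0.663, 1.55, 4.52 and 0.886 FPKM and Ctss at 4.35, 3.76, 3.59, 13.8 and 4.43 FPKM. For each of these genes control 4 was the highest and did not overlap the other 4. The summed FPKM of the list was 474 in control 4 and 167 to 181 in the others. Of 20 members with 100 or more counts, 18 were highest in control 4 (against 21.2% of all detected genes), and 17 were at least 2-fold the median of the other 4, by 2.13-fold (Cd68) to 6.34-fold (Fcgr3). Sall1 and Tmem119, among the remaining 3, stood at 1.02 and 0.99 times that median. In all libraries P2ry12 and Siglech, which define microglia of the brain, stood at 0.0669 to 0.230 FPKM and no count. Without control 4, Lyz2 had a mean of 88.2 ± 7.67 FPKM and C1qa of 3.21 ± 0.851 FPKM (SD, n = 4). Whether the microglial genes bear on other values of control 4 was not tested. The number of microglia and macrophage genes at 1 FPKM was 17 of 25 in control 4, and 12 reached it in every library (48%, against 41.7% of all symbols). Control 4 also had the lowest Lcn2 and the highest Gfap, Mt1 to Mt3, Igf2, Ptgds and Penk.

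Xist, the RNA of the inactive X chromosome, stood at 7.92, 8.39, 7.97, 7.25 and 7.71 FPKM. The Y-linked genes Ddx3y, Eif2s3y, Kdm5d and Uty stood at 1.16, 0.906, 0.980, 1.11 and 1.35, 0.429 ± 0.0513, 0.343 ± 0.117 and 0.176 ± 0.0330 FPKM, and all 4 were counted in every library. RNA counted for both sexes was thus present in each library. Of 23 imprinted genes, 16 were detected. H19, a long non-coding RNA expressed from the maternal copy, stood at 189, 254, 234, 328 and 161 FPKM. Its neighbour Igf2, expressed from the paternal copy, stood at 52.1, 73.4, 61.4, 114 and 48.6 FPKM. Both were highest in control 4 and lowest in control 5.

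The 5 libraries were close to each other. The common biological coefficient of variation, the spread beyond counting error as estimated by edgeR, was 9.83%. Over detected genes the median CV was 6.60%, against 2.75% from counting error alone, and 7981 of 10724 genes (74.4%) had a CV under 10%. A CV of 25% or more was found for 230 genes (2.14%). The coefficient was 8.86% without control 4, while leaving out each other library in turn gave 9.33% to 11.0%. No pair of libraries agreed within sampling noise, with a chi-square per degree of freedom of 7.34 to 27.8. It was taken over the 14007 genes kept by the filter, less those with few counts in the pair. The most even genes among those at 10 FPKM or more were Tmod3, Retreg2, Srp72, Ddah2, Trpc4ap, Nptn, Wdr45b, Pdia3, Ssr1 and Arhgef12. Tmod3, which caps actin filaments, stood at 24.3, 24.6, 24.5, 24.2 and 24.2 FPKM. The CVs of 9 of these 10 were below their counting error, which follows partly from picking the genes of lowest CV. Pdia3 was the exception, at 0.763% against 0.599%.

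**Figure D4:**
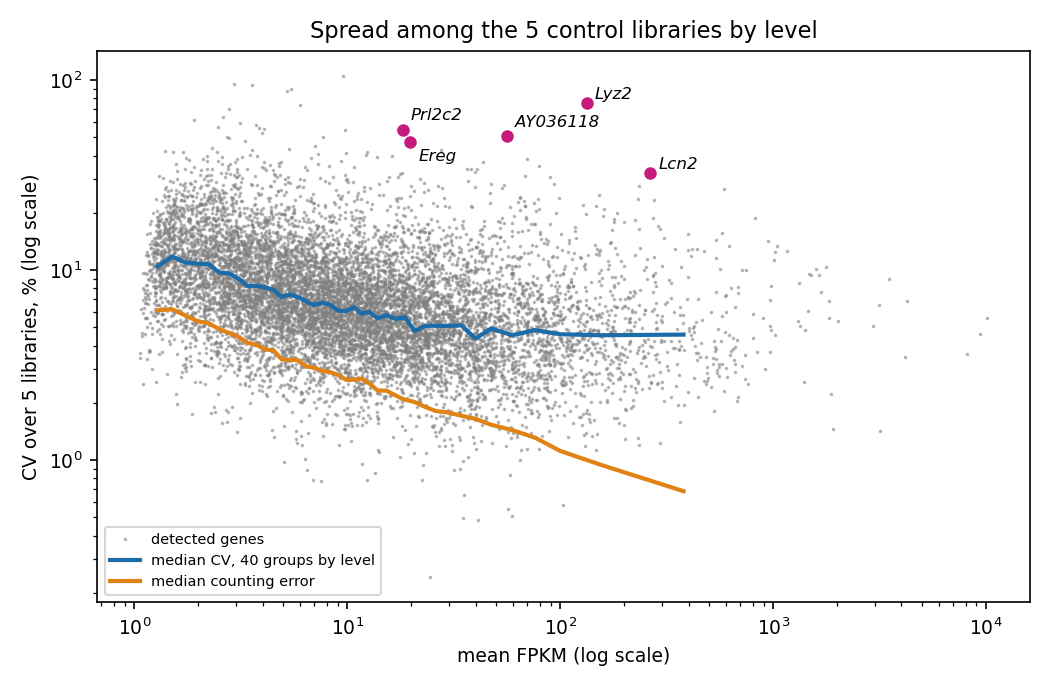
CV over the 5 control libraries (percent, log axis) against mean FPKM (log axis) for the 10724 detected genes, with the median CV and the median counting error in 40 groups of genes by level. The median CV lies above the counting error at every level, and Lyz2, at a CV of 75.9%, is the highest gene of those at 10 FPKM or more.

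Among the 5182 genes at 10 FPKM or more, 51 had a CV of 25% or more. After Lyz2, the widest were Prl2c2 at 20.6, 8.43, 14.5, 13.4 and 33.9 FPKM, the ribosomal-locus transcript AY036118 at 70.1, 23.01, 62.2, 32.5 and 92.5 FPKM and Ereg, a ligand of the EGF receptor, at 21.5, 10.1, 12.9, 20.2 and 33.7 FPKM. All 3 were highest in control 5 and lowest in control 2. Of the 15 genes of highest CV, 9 were highest in control 5, 5 in control 4 and 1 in control 1, and 12 were lowest in control 2. Those highest in control 5 also included the urokinase receptor Plaur at 47.6, 24.9, 34.3, 36.4 and 60.4 FPKM, Sema7a at 42.4, 23.6, 33.5, 28.6 and 54.7 FPKM, Nptx1 at 14.3, 6.87, 10.4, 9.99 and 19.4 FPKM and Errfi1, a feedback inhibitor of the EGF receptor, at 41.7, 26.4, 30.3, 54.5 and 63.6 FPKM. Prl2c2 belongs to a family of near-identical copies, and 83.3% of its windows are shared, so that its level is uncertain. The same holds for AY036118, with 100% of its windows shared. Ptgds, Penk and Igf2 were highest in control 4, with Ptgds at 22.2, 21.1, 25.7, 48.3 and 20.8 FPKM and Penk at 9.39, 7.44, 10.4, 20.3 and 14.4 FPKM.

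**Figure D5:**
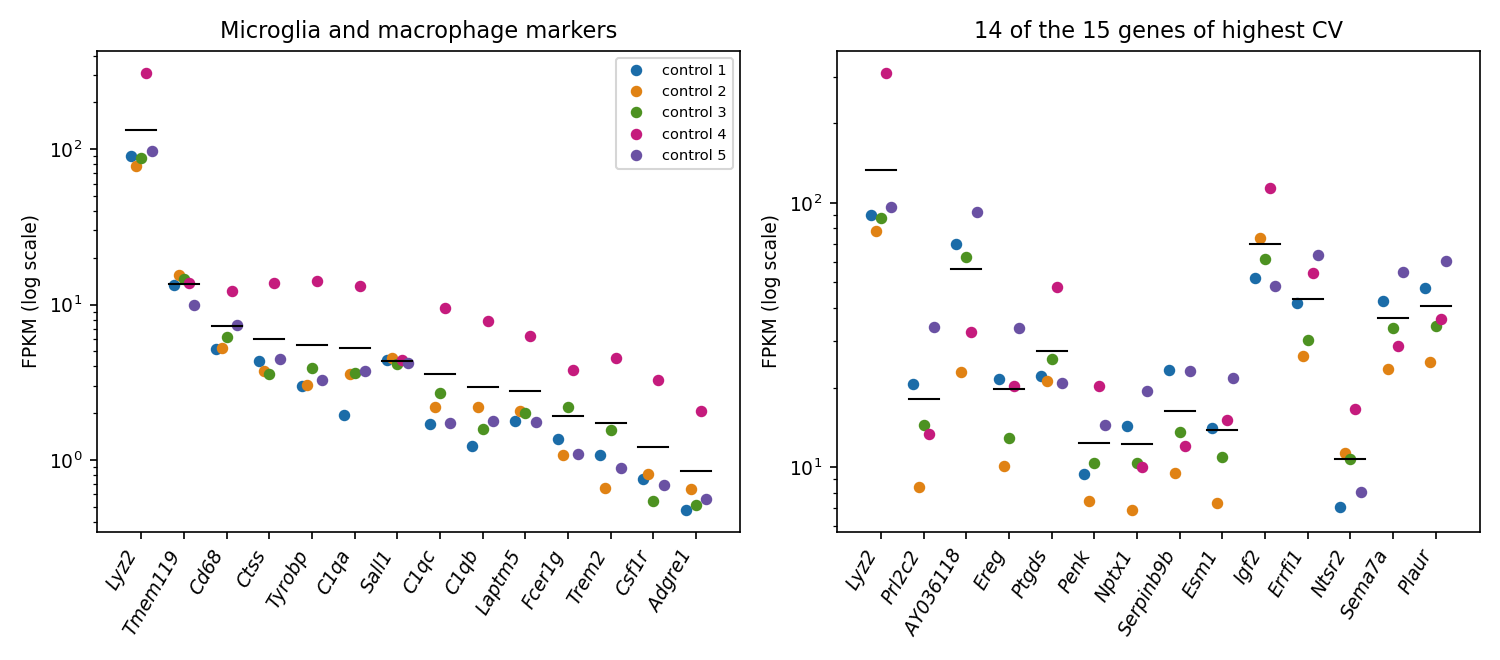
FPKM (log axis) in the 5 control libraries of 14 microglia and macrophage markers (left) and of 14 of the 15 genes with the highest CV among those at 10 FPKM or more (right), with 1 point per library and a black line at the mean. Control 4 lies above the other libraries for most microglial markers but not for Tmem119 or Sall1, and control 2 is lowest for 11 of the 14 genes on the right.

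Members of a list often had the same library at their highest or lowest level. Of the 24 immediate early genes detected, 15 were highest in control 5 (62.5%, against 20.5% of all detected genes) and 8 in control 4, while 15 were lowest in control 2 (62.5%, against 20.5%) and 9 in control 3 (37.5%, against 9.05%). Nr4a1, an orphan nuclear receptor, stood at 16.3, 11.2, 10.7, 17.8 and 20.96 FPKM, and Atf3 at 69.5, 54.2, 53.0, 80.98 and 83.5 FPKM. Of the 46 astrocyte identity genes detected, 28 were highest in control 4 (60.9%, against 21.2%) and 23 lowest in control 1 (against 17.5% of all detected genes). Relative to the median of the other libraries, the median astrocyte identity gene stood at 1.11 in control 4 and 0.90 in control 1. Cytoskeletal genes ran the other way, and 17 of 33 detected were highest in control 1 (51.5%, against 19.1%). Of 59 matrix genes detected, 31 were lowest in control 5 (52.5%, against 25.7%). Genes of a list share their libraries and are not independent, so these counts are descriptions.

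Control 3 was nearest to the others. Among 5130 genes at 10 FPKM or more, counted without predicted genes named Gm or Rik, 5 lay 0.5 or more from the median of the other 4 on the log2 scale in control 3. The corresponding numbers were 18 in control 1, 44 in control 2, 52 in control 4 and 63 in control 5. The genes that lay farthest were Serpinb9b in control 1 (23.3 FPKM), AY036118 in control 2, Ereg in control 3, Lyz2 in control 4 and Prl2c2 in control 5. Txnip, a glucose-responsive inhibitor of thioredoxin, stood at 17.7, 25.4, 20.3, 14.5 and 10.3 FPKM and was lowest in control 5.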

How the data were processed

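Polyadenylated RNA of primary mouse brain astrocytes was sequenced. Per the labels' protocols, TRIzol was used for extraction, the VAHTS Universal V6 kit for the libraries, and OE Biotech did the sequencing. Per the submitters' processing notes the builds were GRCm38 and mm10. Nothing names the aligner, counter, annotation or strandedness (not given in the sources used here). The files deposited by the authors hold raw counts for 25748 gene symbols and FPKM values. Gene lengths were derived from the deposited counts, total counts and FPKM, not taken from an annotation. For each gene the derived length was the same in every library, with a relative deviation up to 7.22e-10. In the FPKM files 37 symbols were damaged and left out, which left 25711.

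The 5 libraries labelled control were used, with no test between groups. Detection and levels rest on FPKM. Spread rests on counts scaled by TMM, with the dispersion from an intercept-only edgeR 4.0.16 model in R 4.3.3 after filterByExpr, which was tested on simulated data. Counting error was taken as the CV of a Poisson count with the gene's mean count. DESeq2 1.42.0 size factors were an alternative. Shared sequence was counted in 50-base windows of GENCODE vM21 transcripts. Gene lists hold 1534 symbols in 50 lists, of which 1487 were measured and 47 were not analysed here. The members and lists were chosen with earlier results of these data known.

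Genes were named by a rule: the 5 markers, the 30 of highest FPKM, up to 8 of highest FPKM in each list, undetected markers of other cell types, all members of small families, the 15 of highest and 10 of lowest CV at 10 FPKM or more, and the 5 farthest from the others in each library. Outside the rule, 15 were chosen after their values were seen, namely Aldh1l1, Aldoa, Bmal1, Foxc1, Foxd1, Gabbr2, Gapdh, Kcnj16, Ldha, Mki67, Slc1a2, Slc6a11, Tbx18, Thbs2 and Twist1. Some genes that the rule names are not reported here.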

Additional observations from a re-analysis of the deposited data

Results flagged for a closer look

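A gene is given here where 1 library stood so far from the other 4 that its gap to the nearest exceeded 0.71 of the whole range. This was looked at in the 245 named genes with at least 50 counts over the 5 libraries, and 13 met it. Chance alone gives about 1 in 20 among genes not picked by their values. Some named genes were picked because 1 library lay far from the others or because their CV was high. The count of 13 and its split by library follow partly from that choice. Of these 13, 12 had control 4 as the distant library. Among all 10724 detected genes 528 met it (4.92%), and control 4 was the distant library for 184 of them, against 38 to 128 for the other libraries.

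Microglial genes were distant in control 4, all higher. Lyz2 stood at 311.1 FPKM, Tyrobp at 14.2 FPKM, Ctss at 13.8 FPKM, C1qa at 13.2 FPKM, Trem2 at 4.52 FPKM and Csf1r at 3.27 FPKM. Fcgr3, an antibody receptor of macrophages, stood at 1.19 FPKM there and at 0.132 to 0.254 FPKM in the other libraries. Ptgds, the prostaglandin D synthase of meninges and oligodendrocytes, stood at 48.3 FPKM in control 4 and at 20.8 to 25.7 FPKM elsewhere. Mbp, a myelin gene, stood at 1.35 FPKM against 0.399 to 0.575 FPKM, and Vtn, made by pericytes, at 0.534 FPKM against 0.103 to 0.216 FPKM. Gja1 stood at 320.9 FPKM against 264.8 to 279.8 FPKM. Cxcl1, a chemokine, was lowest in control 4, at 7.23 FPKM against 11.6 to 12.5 FPKM. Adrb1 was highest in control 3, at 3.85 FPKM against 3.42 to 3.52 FPKM.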

How the results depend on the processing

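The number of detected genes was 11803 at 0.5 FPKM, 9381 at 2 FPKM, 11156 by the mean, 14036 at 10 counts in every library and 10776 with GENCODE lengths, a length choice added after the data were seen, and 10749 to 10796 when 1 library was left out. The share of all FPKM in the 100 highest genes, 31.7 ± 0.378%, was 22.5% of counts with no length scaling, 28.9% without mitochondrially encoded genes and 27.9% with GENCODE lengths, and 31.6 to 31.8% when 1 library was left out. The coefficient of variation of edgeR was 9.86% with library size only, 9.83% with DESeq2 size factors and 10.2% with no filter on low counts, and ran from 8.86% without control 4 to 11.0% without control 3. The median CV was 5.19% among genes of 10 FPKM or more and 6.04% to 6.90% when 1 library was left out. GENCODE lengths were matched for 18754 of 25711 symbols, of which 10381 were detected with the deposited lengths and whose 100 highest held 29.4% of their FPKM. Of the 30 highest genes, 24 had such a length and 21 of these stayed, and the 6 without were mitochondrially encoded.

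Of 276 named genes, none moved by over 1.5 times with TMM-scaled totals or with mitochondrial counts left out of the total. With GENCODE lengths 47 of 263 did, so that levels between genes hold only as far as the lengths do. Among named genes with 100 or more counts, leaving out control 4 moved 6 by over 1.5 times: Lyz2 to 88.2, C1qa to 3.21, Tyrobp to 3.28, Csf1r to 0.700, Trem2 to 1.04 and Fcgr3 to 0.191 FPKM. Of named genes with 2 to 26 counts, Mog went to 0.00777 and Dpt to 0.0546 FPKM without control 4, Nlrp2 to 0.00399 FPKM without control 1 and Gabbr2 to 0.00381 FPKM without control 5, and Hes5, Abcc9 and Rbfox3 also moved by over 1.5 times. No paired analysis was possible because no groups were compared. Genes with few counts in all 5 libraries are limited by depth.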
